A study of Homo sapiens with 2 samples.

Results

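Homeobox genes encode transcription factors that bind DNA through a homeodomain, and outside the HOX clusters they fall into families named POU, LIM, SIX-type, MEIS/PBX, DLX, MSX, IRX, NKX2, PITX, OTX, EMX and EN. The reads of 50 such developmental regulators, listed by name, were compared between parental control and CARM1 knockout (CARM1 KO) A1847 cells. Of these, 49 were matched by gene identifier among the 57736 genes of the table, and LHX1 was not analysed here. A1847 is a human epithelial ovarian cancer cell line that expresses high levels of CARM1, an arginine methyltransferase that modifies histones and chromatin regulators. The parental group had the CARM1 wild type genotype. The CARM1 KO group was derived from the same line by CRISPR with a guide RNA against CARM1 delivered in a lentiviral vector, and both were grown in the same serum-supplemented RPMI medium. Each group was 1 library of total RNA, and the knockout was 1 clone, so that loss of CARM1, differences between clones and differences between cultures cannot be told apart.

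Homeodomain proteins switch on and maintain tissue-specific programs during development, often several family members together and through protein partners. In cells that do not use them, many of these genes are held silent by the Polycomb repressive complex PRC2, whose catalytic subunit EZH2 methylates lysine 27 of histone H3. Their promoters typically lie in stretches rich in the dinucleotide CpG. The comparison addresses how the transcripts of these regulators differed when CARM1 was knocked out in a line whose dependence on EZH2 activity was under study.

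Levels of each gene were compared as the ratio of its reads after edgeR's TMM scaling, with an exact 95% binomial interval that covers counting error only. A gene was called higher or lower where this whole interval lay past 3-fold, among genes whose reads summed to at least 10 over the libraries. Where reads of a gene are given as a pair, the parental library comes first, and coordinates are those of GRCh37 (hg19). There was no replicate, so no p-value is given and no difference has a replicate check. By this rule 6.81% of all 18563 genes with enough reads were called higher and 6.71% were called lower in CARM1 KO cells. Among the 14140 protein-coding genes the shares were 7.48% and 6.27%.

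The libraries held 30741953 reads (parental) and 32300391 reads (CARM1 KO) assigned to genes. Transcripts of the targeted gene CARM1 were at 975 reads (parental) and 380 reads (CARM1 KO), 2.65-fold apart (2.35 to 2.99, 95% counting interval), so that CARM1 was not called. The line was checked against marker genes. Of the epithelial ovarian cancer markers, the keratin gene KRT8 had 17600 and 70370 reads, EPCAM 249 and 848 reads and PAX8 311 and 1149 reads in parental and CARM1 KO cells, whereas MUC16 had 0 and 1 and WT1 8 and 1. Of 8 epithelial markers with at least 10 reads, 5 were called higher (CDH1, KRT7, KRT8, MSLN and PAX8) and 1, KRT19, was called lower in CARM1 KO cells. Of 5 fibroblast markers 3 were called lower and COL1A1 higher, and their summed level was 482 RPM (reads on a per-million scale) in parental and 21.3 RPM in CARM1 KO cells, with COL3A1 at 14587 and 1 reads. Of 3 neuronal markers with at least 10 reads, 1, the synaptic gene SYP, was called lower, with 202 and 7 reads. Over all genes with enough reads, 6.81% were called higher and 6.71% lower. The leukocyte and endothelial markers that were matched had at most 13 reads in a library, with CD3E and CDH5 at 0 in both. The endothelial marker PECAM1 was not matched and so was not analysed here. These marker levels differed between the same libraries as every result below, and their part in those results was not tested. In bulk RNA, fewer cells with a transcript and less of it per cell cannot be told apart.

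Non-HOX homeobox genes differed in both directions between the libraries. Of the 49 matched members, 35 had at least 10 reads, 3 had between 1 and 9 reads and 11 had 0 reads in both libraries. Among the 35, 6 were called higher in CARM1 KO cells (LHX2, LHX9, DLX6, POU3F2, PBX4 and POU3F3) and 7 were called lower (DLX2, ISL1, LHX8, MEIS1, MEIS3, DLX1 and MEIS2). These are 17.1% and 20% of the members with enough reads, beside 6.81% and 6.71% of all genes with enough reads. The remaining 22 were not called, of which 3 had an interval that included an equal level. The median log2 fold change of the 35 members was 0.42, beside -0.03 for all genes with enough reads. It stayed at 0.42 with SIX3, the member at 0 in one library, set at its bound, and turned to -0.47 with a minimum of 50 reads, which leaves out 7 members with few reads. The summed level of the 35 members ran the other way, from 1224 RPM in parental to 346 RPM in CARM1 KO cells.

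**Figure D1:**
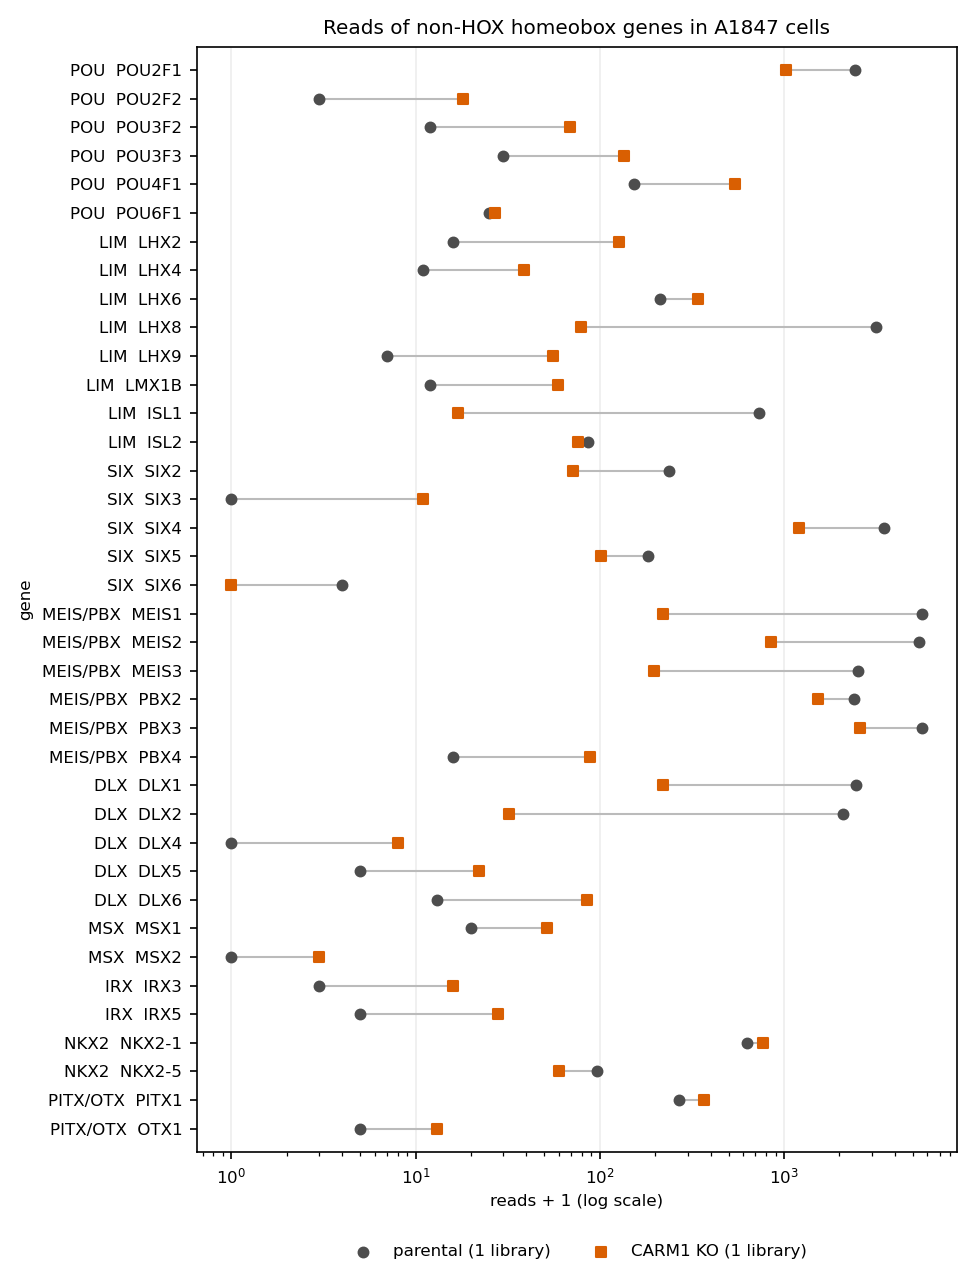
Reads of the 38 members with at least 1 read, as reads + 1 on a log scale, with a circle for the parental library and a square for the CARM1 KO library and genes ordered by family. The longest lines run leftward from parental to CARM1 KO, as for DLX2 (2079 to 31 reads) and LHX8 (3151 to 78), while LHX2 (15 to 126) and DLX6 (12 to 84) run rightward.

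Promoter sequence, which played no part in the choice of members, was read from RefSeq. Its promoter windows (250 bases before to 50 after the start) were found for 39 of the 50 members, among them 29 of the 35 with enough reads. These 29 windows held a median of 29 CpG, from 8 in PBX2 to 47 in POU4F1, beside a median of 14 over all 27305 genes with a window and 22 over the 14998 protein-coding genes in the table. PBX2, POU2F2 (12) and LHX8 (13) lay below the median of all genes. The median GC content of the 29 windows was 67%, beside 58.3% over all genes with a window and 63% over the protein-coding genes. Windows of the 6 members called higher held 21 to 35 CpG (median 27) and those of the 7 called lower 13 to 36 (median 23), so that the ranges overlapped and the latter median lay near that of protein-coding genes. Some of these windows lay away from the canonical start of the gene. The distance was 5954 bases for LHX8 (13 CpG), 2706 for MEIS3 (14), 1443 for MEIS2 and 4908 for LHX9. These windows may thus not describe the promoter in use. The distance was read for called members only. The letters TAATTA, the same on both strands and the core recognised by many homeodomains, were in 0 of these 29 windows and in 2 of the 10 found for members with fewer reads (MSX2 and EMX2), beside 4.98% of all 27305 and 3.23% of protein-coding genes. A match or its absence describes these windows only.

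Stretches of 200 bases that end just before the annotated transcript start are shown for a pair of members that fell and a pair that rose, chosen because the stretch lies outside the gene and meets its canonical start, to let their CpG content be read directly. Each CpG is in capitals and the remaining bases are in lower case, 5′ to 3′ on the strand of the gene. The stretches lie at chr2:172967629-172967828 on the minus strand (DLX2, lower), and on the plus strand at chr5:50679082-50679281 (ISL1, lower), chr7:96634665-96634864 (DLX6, higher) and chr6:99282250-99282449 (POU3F2, higher), in GRCh37.
DLX2: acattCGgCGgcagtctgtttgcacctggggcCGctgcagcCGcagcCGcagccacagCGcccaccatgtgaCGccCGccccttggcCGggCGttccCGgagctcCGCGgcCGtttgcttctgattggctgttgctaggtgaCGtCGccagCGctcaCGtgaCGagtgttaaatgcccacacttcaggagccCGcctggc
ISL1: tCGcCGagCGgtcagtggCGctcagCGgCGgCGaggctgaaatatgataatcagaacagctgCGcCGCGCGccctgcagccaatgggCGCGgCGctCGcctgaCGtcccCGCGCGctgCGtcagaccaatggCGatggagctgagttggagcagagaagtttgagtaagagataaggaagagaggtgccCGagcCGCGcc
DLX6: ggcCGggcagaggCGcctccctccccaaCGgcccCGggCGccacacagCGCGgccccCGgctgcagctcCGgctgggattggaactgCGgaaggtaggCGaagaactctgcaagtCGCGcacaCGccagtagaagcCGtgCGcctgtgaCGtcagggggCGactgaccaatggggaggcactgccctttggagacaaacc
POU3F2: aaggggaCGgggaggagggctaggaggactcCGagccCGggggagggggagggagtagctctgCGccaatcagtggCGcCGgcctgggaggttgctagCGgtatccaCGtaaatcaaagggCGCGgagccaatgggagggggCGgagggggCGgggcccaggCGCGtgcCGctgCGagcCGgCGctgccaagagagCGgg
They hold 20, 24, 18 and 19 CpG respectively. The same stretch held 9 to 25 CpG in the other members called lower and 16 to 27 in the others called higher, so that the stretches shown do not stand for all called members.

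MEIS and PBX genes, of the TALE class, encode cofactors that bind DNA together with HOX and other homeodomain proteins. All 3 MEIS members were called lower. MEIS1 (chr2:66660584-66801001) had 5640 parental reads and 219 CARM1 KO reads, 26.6-fold lower (23.2 to 30.6). MEIS2 (chr15:37181405-37393500) had 5427 and 844 reads, 6.64-fold lower (6.17 to 7.15). MEIS3 (chr19:47906381-47922784) had 2523 and 196 reads, 13.3-fold lower (11.5 to 15.5). The intervals of the 3 MEIS genes did not overlap one another, with the largest fold in MEIS1. Levels per length of the MEIS genes were alike in parental cells, at 16.6, 14.7 and 15.9 RPKM (reads per kb of merged exon on a per-million scale) for MEIS1, MEIS2 and MEIS3, and were 0.625, 2.22 and 1.19 in CARM1 KO cells. Pseudogene copies of MEIS3 had few reads and ran the other way, MEIS3P1 from 6 to 76 and MEIS3P2 from 5 to 28 reads, so that the division of reads between MEIS3 and these copies adds uncertainty to the smaller count.

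The PBX genes, partners of MEIS proteins in the same complexes, did not move as the MEIS genes did. PBX3 had 5593 parental reads and 2570 CARM1 KO reads, 2.25-fold lower (2.14 to 2.36). PBX2 had 2400 and 1535 reads, 1.61-fold lower (1.51 to 1.72). Neither was called, and PBX3 kept the highest level per length of all members in both libraries, at 36.8 and 16.4 RPKM. PBX4 (chr19:19672516-19729502) had 15 and 87 reads and was called higher, at 5.62-fold (3.22 to 10.5). Its level in CARM1 KO cells was 1.17 RPKM and so stayed below those of PBX2 and PBX3.

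DLX genes are arranged in pairs that face each other, and regulate craniofacial, limb and forebrain development. The pairs behaved differently. DLX1 (chr2:172949468-172954405) had 2459 parental reads and 219 CARM1 KO reads, 11.6-fold lower (10.1 to 13.4). DLX2 (chr2:172964166-172967628), 9.8 kb away, had 2079 and 31 reads, 69.3-fold lower (48.6 to 102). DLX1 and DLX2 thus had like levels in parental cells (22.2 and 22.6 RPKM), and in CARM1 KO cells DLX2 was the lower of the pair (1.92 and 0.326). In the other pair, DLX6 (chr7:96634865-96640352) had 12 and 84 reads and was called higher, at 6.78-fold (3.68 to 13.6). DLX5, 9.4 kb from it, had 4 and 21 reads, 5.08-fold higher (1.72 to 20.4), and was not called. In CARM1 KO cells the level of DLX6 was 0.761 and that of DLX5 0.376 RPKM, below the parental levels of DLX1 and DLX2. Of the third pair, DLX4 had 0 and 7 reads and DLX3 had 0 in both libraries.

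LIM-homeodomain factors combine a homeodomain with LIM domains through which they bind LDB cofactors, and specify neurons, limb and endocrine cells. Of 8 analysed, 2 were called lower and 2 higher. LHX8 (chr1:75594119-75627218), a factor of forebrain cholinergic neurons and oocytes, had 3151 parental reads and 78 CARM1 KO reads, 41.7-fold lower (33.3 to 52.9). ISL1 (chr5:50679282-50690564), a factor of motor neurons, pancreatic islets and heart progenitors, had 734 and 16 reads, 47.4-fold lower (29.0 to 83.3). LHX8 was among the members of highest level per length in parental cells, at 22.7 RPKM, and ended at 0.545, while ISL1 went from 8.40 to 0.177. ISL2, the paralog of ISL1, had 85 and 75 reads, a ratio whose interval included an equal level (1.17-fold lower, 0.848 to 1.62).

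LHX2 (chr9:126763949-126795580), which acts in forebrain, eye and hair follicle, had 15 parental reads and 126 CARM1 KO reads, 8.13-fold higher (4.75 to 15.0). LHX9 (chr1:197881032-197904608), its paralog and a gonadal factor, had 6 and 55 reads, 8.88-fold higher (3.83 to 25.2). Both were called higher, and per length both stayed below the parental level of LHX8, at 1.58 and 0.164 RPKM in CARM1 KO cells. LMX1B, a factor of limb and kidney, had 11 and 58 reads, 5.11-fold higher (2.65 to 10.8), and the pituitary factor LHX4 had 10 and 38 reads, 3.68-fold higher (1.80 to 8.28). Neither was called. LHX6, a factor of cortical interneurons, had 210 and 340 reads, 1.57-fold higher (1.32 to 1.87).

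POU genes encode factors with a POU-specific domain beside the homeodomain. The neural factors POU3F2 and POU3F3 were called higher. POU3F2 (chr6:99282450-99287334) had 11 parental reads and 68 CARM1 KO reads, 5.99-fold higher (3.14 to 12.6). POU3F3 (chr2:105469745-105475032) had 29 and 135 reads, 4.51-fold higher (3.001 to 6.99), and its interval reached the threshold so closely that it was not called after scaling by library size only, after scaling over protein-coding genes or with a minimum of 50 reads. POU3F1, of the same class, had 0 reads in both libraries. The sensory neuron factor POU4F1 had 153 and 544 reads, 3.44-fold higher (2.87 to 4.15), and was not called because its interval began just below 3-fold. POU4F2 had 0 reads in both.

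Of the remaining POU members none was called. POU2F1, which is expressed in most cell types, had 2421 parental reads and 1018 CARM1 KO reads, 2.46-fold lower (2.28 to 2.65). It was the 1 member of its family with a ratio under 1. Per length, POU2F1 was the highest POU member in parental cells (4.87 RPKM, beside 1.09 for POU4F1) and POU4F1 was the highest in CARM1 KO cells (3.74, beside 1.98 for POU2F1). POU2F2, its lymphoid paralog, had 2 and 17 reads, 8.23-fold higher with a wide interval (1.95 to 73.4). POU6F1 had 24 and 26 reads and an interval that included an equal level (0.579 to 1.91).

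SIX-family genes act in eye, kidney, muscle and ear development, usually with EYA coactivators. None of the 4 SIX-family members with enough reads was called. SIX4 had 3501 parental reads and 1208 CARM1 KO reads, 2.99-fold lower (2.80 to 3.20), at the threshold itself. SIX2, a factor of kidney progenitors, had 237 and 71 reads, 3.45-fold lower (2.63 to 4.56). SIX5 had 182 and 101 reads, 1.86-fold lower (1.45 to 2.40). SIX3, a forebrain and eye factor 59.1 kb from SIX2, went the other way, with 0 and 10 reads. This is at least 3.23-fold higher against 3 parental reads, the floor used where a count is 0, and the exact interval of its ratio began at 2.17. SIX6 had 3 and 0 reads.

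Members of the smaller families were not called. NKX2-1, a lung, thyroid and forebrain factor, had 626 parental reads and 772 CARM1 KO reads, 1.19-fold higher (1.07 to 1.33). NKX2-5, a heart factor, had 96 and 59 reads, 1.68-fold lower (1.203 to 2.36). PITX1, a factor of hindlimb and pituitary, had 267 and 369 reads, 1.34-fold higher (1.14 to 1.57), and OTX1 had 4 and 12 reads with an interval that included an equal level (0.880 to 12.4). MSX1 had 19 and 51 reads, 2.60-fold higher (1.51 to 4.66), and MSX2 had 0 and 2. Of the Iroquois genes, IRX3 had 2 and 15 reads, 7.26-fold higher (1.69 to 65.5), and IRX5 had 4 and 27 reads, 6.54-fold higher (2.28 to 25.7). IRX1, IRX2, IRX4 and IRX6 had 0 reads in both libraries, as did OTX2, EMX1, EMX2 and EN2. A member without reads was not detectable at this depth.

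**Figure D2:**
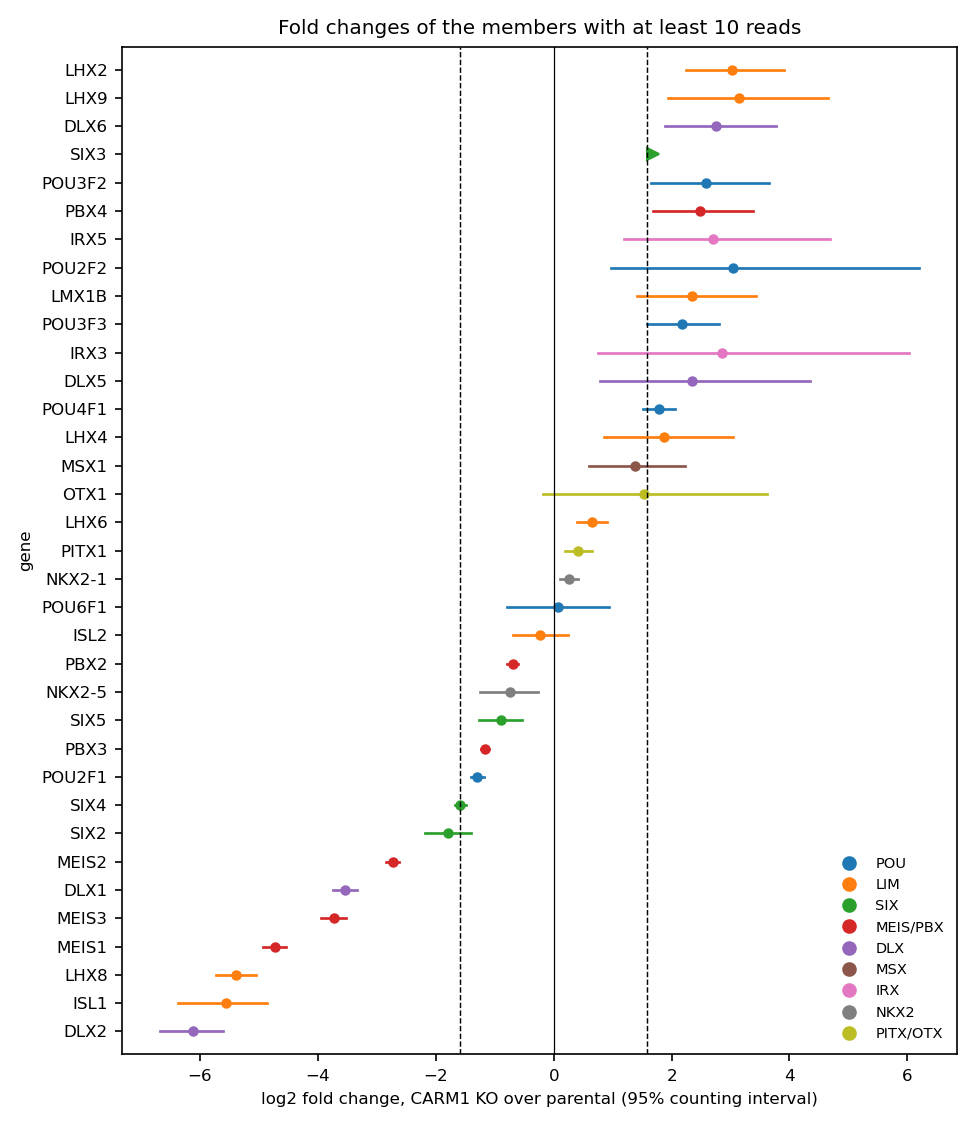
Log2 fold change (CARM1 KO over parental) of the 35 members with at least 10 reads, with 95% counting intervals as bars, an arrowhead at the bound of SIX3, colours for families, a solid line at 0 and dashed lines at 3-fold. The 7 members at the bottom lie wholly past the lower dashed line, and of those on the right 6 have intervals wholly past the upper one.

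Transcripts that start beside or overlap a member on the opposite strand were read beside it. Such partners were in the table for 33 members, and 17 partners of 14 members had at least 10 reads. Of these 17, 6 were called lower and 1 higher, beside 6.71% and 6.81% of all genes with enough reads. Each of the 7 belonged to a member called in the same direction. The 6 called lower had at most 9 CARM1 KO reads and so reached the minimum of 10 through the parental library. Beside LHX8, 3 lncRNAs had reads in parental cells and 0 in CARM1 KO cells: ENSG00000224149 had 287, ENSG00000261213 had 112 and ENSG00000224127 had 60. Against the floor of 3 reads these were at least 98.8-fold, 38.6-fold and 20.7-fold lower, and their exact intervals began at 79.8, 30.8 and 16.3. ISL1-DT had 245 parental reads and 9 CARM1 KO reads, 28.1-fold lower (14.6 to 62.2). DLX2-DT had 41 and 0 reads, at least 14.1-fold lower against the floor (exact interval from 11.0), and MEIS1-AS3 had 21 and 0 reads, at least 7.23-fold lower (from 5.38). On the side of the genes that rose, DLX6-AS1, a lncRNA that overlaps DLX6, had 31 and 273 reads, 8.53-fold higher (5.87 to 12.8), beside 6.78-fold for DLX6.

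The other 10 partners were not called. CRNDE, beside IRX5, had 58 and 125 reads, and NKX2-1-AS1 had 14 and 38. ACBD6, a protein-coding gene that overlaps LHX4, had 129 and 54 reads and thus ran against LHX4. C14orf39, over SIX6, had 25 and 4 reads and PBX3-DT had 22 and 8. The remaining 5 had few reads in either library: LINC01833 (beside SIX3) 10 and 8, PITX1-AS1 5 and 15, OBI1-AS1 18 and 19, ENSG00000271776 4 and 6 (both over POU4F1) and ENSG00000259605 (over SIX5) 9 and 4. Whether strand was used in counting is not given in the sources used here, so reads of a member and of its overlapping partner cannot be told apart with certainty.

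The homeobox genes of the same class outside the list were read next, to place the members among their relatives. Of 126 listed, 123 were matched and 58 had at least 10 reads. Of these 58, 9 were called higher and 9 lower (15.5% each), beside 6.81% and 6.71% of all genes with enough reads. The median log2 fold change of the 58 was 0.32. Values are given for 7 of those called lower and 6 of those called higher. POU1F1, the pituitary POU factor, had 3060 and 0 reads, at least 1053-fold lower against the floor of 3 reads (exact interval from 856), a larger fall than that of any listed POU member.

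The other 6 of these that fell were MEOX1 (927 and 18 reads, 53.2-fold), MEOX2 (1544 and 78 reads, 20.4-fold), TSHZ1 (652 and 33 reads, 20.4-fold), TLX3 (277 and 5 reads, 57.2-fold), ALX4 (278 and 0 reads, at least 95.7-fold against the floor and from 77.3-fold by the exact interval) and LBX1 (130 and 0 reads, at least 44.8-fold, and from 35.9-fold). MEOX1 and MEOX2 act in somites and LBX1 in migrating muscle precursors. Among those that rose, the zinc finger homeobox repressor ZEB2 had 430 and 2172 reads, 4.89-fold higher (4.41 to 5.44). ZFHX4 had 186 and 1039 reads, 5.41-fold higher (4.62 to 6.36), and the tendon factor MKX, of the TALE class, had 62 and 674 reads, 10.5-fold higher (8.11 to 13.9). ZHX2 had 61 and 372 reads, 5.91-fold higher (4.49 to 7.87), and GBX2, a hindbrain factor, had 64 and 265 reads, 4.01-fold higher (3.04 to 5.35). DRGX had 1 and 101 reads, a 97.8-fold ratio with an interval from 17.2 to 3901.

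**Figure D3:**
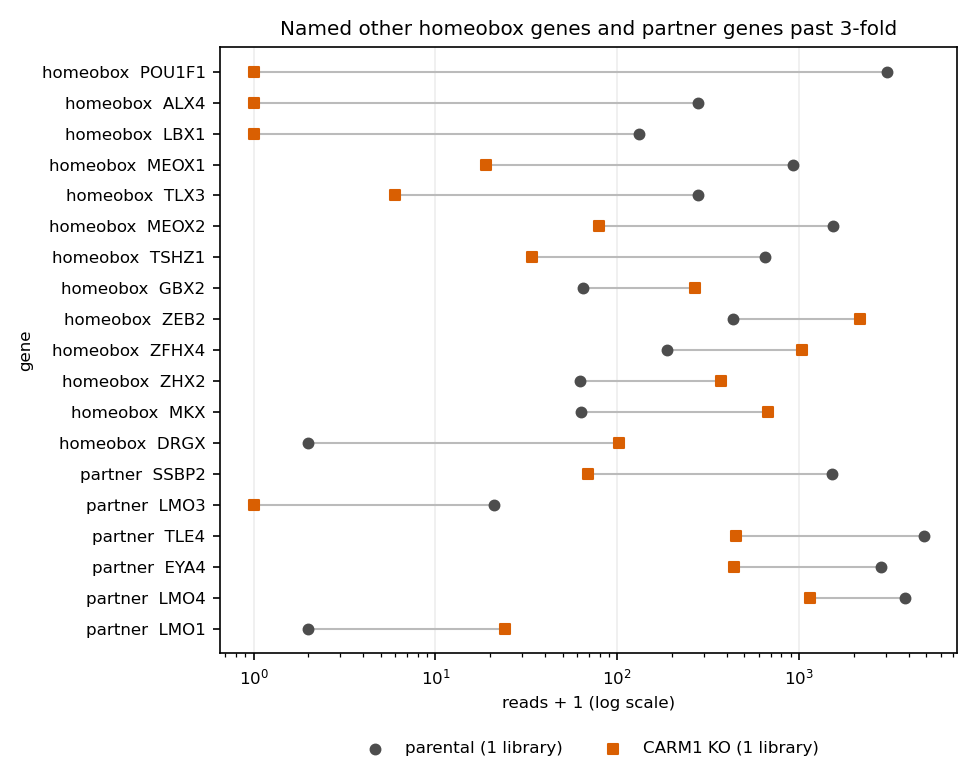
Reads + 1 (log scale) of 13 other homeobox genes and 6 partner genes called past 3-fold, with a circle for parental and a square for CARM1 KO. POU1F1, ALX4, LBX1 and LMO3 have 0 reads in CARM1 KO cells, while ZEB2 has 2172, ZFHX4 1039 and MKX 674.

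Genes for the cofactors of these factors differed too. Of 21 listed, 20 were matched and 16 had at least 10 reads, with a median log2 fold change of -0.67. Of the 16, 1 was called higher (6.25%) and 5 lower (31.25%), beside 6.81% and 6.71% of all genes. The share called higher thus lay near the background. SSBP2, which stabilises the LDB cofactor of LIM-homeodomain proteins, had 1507 parental reads and 68 CARM1 KO reads, 22.9-fold lower (17.9 to 29.6). LDB1 itself had 1857 and 1153 reads, 1.66-fold lower (1.54 to 1.79), and was not called. LMO4, a LIM-only protein that competes for LDB, had 3834 and 1150 reads, 3.44-fold lower (3.22 to 3.68), and LMO3 had 20 and 0 reads. LMO1 had 1 and 23 reads, 22.3-fold higher with an interval from 3.62 to 917. LDB1, LMO1 and LMO3 fall outside the rule for named genes and were chosen after their values were seen.

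EYA4, a coactivator of SIX-family proteins, had 2838 parental reads and 438 CARM1 KO reads, 6.69-fold lower (6.05 to 7.42). TLE4, a Groucho corepressor recruited by many homeodomain proteins, had 4833 and 447 reads, 11.2-fold lower (10.1 to 12.3). None of the 11 PRC2 subunit genes was called. EZH2 had 3141 and 5380 reads, 1.66-fold higher (1.59 to 1.73), EED had 2178 and 4114 reads, 1.83-fold higher (1.74 to 1.93), and SUZ12 had 2487 and 3143 reads, 1.22-fold higher (1.16 to 1.29).

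**Figure D4:**
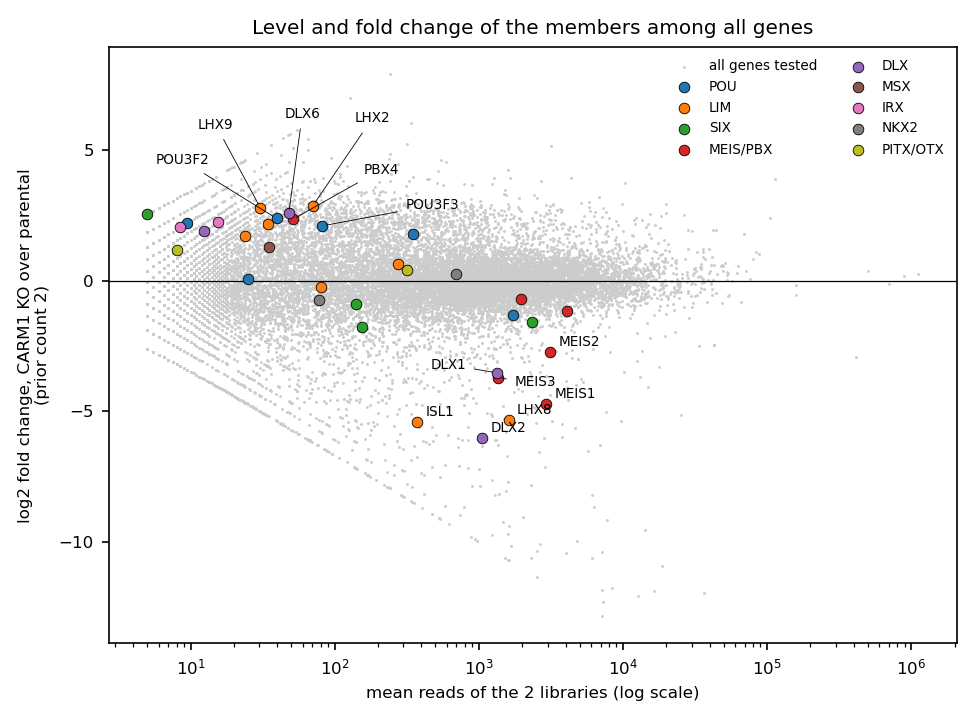
Log2 fold change (CARM1 KO over parental, prior count 2) against the mean reads of the libraries (log scale) for all 18563 genes with enough reads in grey and the 35 members in colour by family, with the 13 called members named. The 6 members called higher lie at few reads, to the left of the 7 called lower.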

How the data were processed

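RNA of 1 parental and 1 CARM1 KO library was prepared with the ScriptSeq complete Gold kit and sequenced as 75 bp paired-end reads. Alignment by the authors was to hg19 with bowtie2, and the authors deposited estimated counts per Ensembl gene from RSEM (1.2.3 per the submitters' processing notes, while the study's methods give another version), not normalized and rounded to whole numbers. Because RSEM shares ambiguous reads out between similar genes, values of near copies are uncertain. The authors' dispersion, annotation release and strand setting are not given in the sources used here.

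Of 57736 identifiers, 55501 were in the GENCODE annotation lifted to GRCh37, from which symbols, coordinates and merged exon lengths were taken. Counts were scaled by TMM in edgeR 4.0.16 (R 4.3.3; factors 1.01 and 0.991). Ratios have exact 95% Clopper-Pearson intervals (scipy 1.17.1) that cover counting error only. Reads are not independent molecules. Genes at 0 in one library were set at 3 reads for bounds. Log2 fold changes carry a prior count of 2. With a single library in each group no residual variation was left for edgeR's quasi-likelihood fit, which was not run. Genes were called where the whole interval lay past 3-fold, the fold used by the authors, with a sum of at least 10 reads over the libraries. The steps were tested on counts simulated with counting error only, so that this test does not bear on differences between cultures or clones. Promoter windows came from RefSeq (GRCh38.p14) and were placed on GRCh37 by exact match. No protein table was used, so the planned identity between members was not computed.

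The members, lists and rules were chosen with earlier results of these data known. The members were named in full, and genes of the other lists where called with at least 50 reads. Some genes it covers are left without values here. The alternatives were other scalings, minimums of reads, call rules and a prior count of 0.5.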

Additional observations from a re-analysis of the deposited data

How the results depend on the processing

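There was 1 library per group, so no library could be left out. No paired analysis was possible because there was 1 library per group. Other scalings moved log2 fold changes by -0.04 to 0.04, and no member changed direction. Of the other lists, 3 genes with log2 fold changes between -0.03 and -0.01 changed sign under upper-quartile or DESeq2 scaling. The 7 members called lower were called under each alternative. Members called higher numbered 14 by the fold alone and under edgeR's exact test with an assumed coefficient of variation of 0.12, 10 with the interval past 2-fold and 2 at a coefficient of 0.4, where LHX2 and LHX9 remained and DLX6, POU3F2, PBX4 and POU3F3 were lost. Members called lower numbered 11 past 2-fold. POU3F3 also lost its call with library size only, with scaling over protein-coding genes and with at least 50 reads. For all genes, calls higher and lower numbered 2357 and 2183 by the fold alone, 2305 and 2125 past 2-fold, 2196 and 1965 at 0.12 and 532 and 894 at 0.4. Other homeobox genes called higher numbered 19 by the fold alone, 16 past 2-fold, 18 at 0.12 and 2 at 0.4. Partners called higher numbered 2, 3 and 2 in the first 3 of these settings, and 0 with at least 50 reads. The median log2 fold change of the members was 0.54 with at least 1 read and -0.47 with at least 50 reads, a minimum that by construction leaves out 7 members with few reads, each with a ratio over 1. Genes with few reads, including LHX9, IRX3 and POU2F2, have wide intervals at this depth.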

Other observations

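The direction of the members differed with their read count. This split was chosen after the counts were seen. Of the 13 members with a mean of 5 to under 50 reads over the libraries, 13 had a ratio over 1 and 3 were called higher, beside 45% of all genes of that band with a ratio over 1 and 4.58% called higher. The shares were 52.2% and 7.17% for protein-coding genes, and 71.4% of the other homeobox genes of that band had a ratio over 1. In this band SIX3, POU2F2, IRX3, DLX5, IRX5, OTX1 and LHX9 had from 0 (SIX3) to 6 (LHX9) parental reads. These members reached the minimum of 10 only through the CARM1 KO library, which in part fixed their direction. Of the 11 members with a mean of at least 500 reads, 10 had a ratio under 1 and 6 were called lower, beside 50.7% of all genes of that band with a ratio under 1 and 4.37% called lower. The shares were 50.9% and 4.28% for protein-coding genes, and 68.8% of the other homeobox genes of that band had a ratio under 1. In the band between, 3 of 11 members were called higher and 1, ISL1, was called lower, beside 11.7% and 8.38% of all genes of that band, so that the share called lower lay near the background.

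Genes around the called members were also read. For each member, 10 protein-coding genes with at least 50 reads were taken, also after the counts were seen. They were the nearest outside the member list, in equal number on each side. DLX1 and DLX2 had the same 10, and the stretch covered ran from 0.347 Mb (PBX4) to 9.45 Mb (ISL1). The median log2 fold change of these neighbours lay between -0.69 (ISL1) and 0.24 (LHX8) for the 7 members called lower. It lay between -0.78 (LHX9) and 0.96 (POU3F3) for the 6 called higher. The members were chosen for their change and the neighbours were not, so the sizes are not compared. The largest numbers of neighbours called higher were 4 of the 10 around POU3F3 and 3 of the 10 around MEIS2, which fell. Around LHX9, which rose, 3 of the 10 were called lower, the largest number in that direction. Among all genes with at least 50 reads, of any type and scaled over such genes, 7.74% were called higher and 6.54% lower. The neighbours were protein-coding genes only and were called under the main scaling, so these shares are not a like background.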
